A study of Mus musculus with 12 samples.

Results

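Livers of mice given curcumin liposomes were compared with livers of mice on the same diet that received none. The comparison rests on 6 of the 12 libraries of the series, chosen by their titles: 3 titled HFHS_Curcumin and 3 titled HFHS. All 12 were whole-liver RNA sequencing libraries from female C57BL/6 mice, an inbred strain, whose age is not given in the sources used here. HFHS is a diet rich in fat and sugar, fed for 14 weeks as a model of fatty liver with inflammation. The curcumin group received its liposomes into a vein at weeks 12 and 13 of that diet, and livers were collected 2 weeks after its first dose. The other groups, of 3 libraries each, were HFHS with calcitriol liposomes on the same schedule and a group titled CNT, whose labels carry the same diet text. Mice given empty liposomes were not analysed here, so the effects of curcumin, of the lipid carrier and of the injections cannot be told apart. Whether each library is a separate animal is not stated, and p-values measure only the spread between these samples.

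Curcumin is a plant polyphenol best known in cell studies for damping NF-kB, the transcription factor that switches on many inflammatory genes, and for inducing protective genes through the factor NRF2. Liposomes injected into a vein are taken up largely by the phagocytic cells of the liver and spleen. In fatty liver disease, hepatocytes that store fat share the organ with macrophages that have entered from blood, and with stellate cells that lay down collagen. Hepatocytes also make cholesterol under the control of the sterol sensor SREBP2, and most of them rest outside the cell cycle until they have to replace lost cells.

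The members of 4 pathways named below are textbook targets of factors that read short motifs close to the transcription start, and stretches from 7 of their promoters are printed here so that the genes can be seen beside their values. The sequences come from the RefSeq promoter table on GRCm38, read 5′ to 3′ on the strand of the gene. Mcm5, Mcm6 and Hells are DNA replication and chromatin genes that fell with curcumin, and capitals mark the E2F letters TTTGGCGC, TTTCCCGC, TTTCGCGC or TTTGCCGC on either strand. The stretch of Mcm5 lies at chr8:75109309-75109508 on the plus strand, that of Mcm6 at chr1:128359706-128359855 on the minus strand and that of Hells, cut to the bases around its match, at chr19:38930918-38930945 on the plus strand.
Mcm5: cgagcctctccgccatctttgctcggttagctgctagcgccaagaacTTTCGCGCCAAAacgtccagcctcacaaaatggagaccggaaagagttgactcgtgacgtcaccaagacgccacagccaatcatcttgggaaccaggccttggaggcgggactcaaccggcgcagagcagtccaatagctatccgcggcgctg
Mcm6: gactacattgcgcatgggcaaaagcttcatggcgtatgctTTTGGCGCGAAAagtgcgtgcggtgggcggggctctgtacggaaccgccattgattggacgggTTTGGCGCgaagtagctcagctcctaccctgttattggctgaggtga
Hells: accaccgggtTTTCCCGCgaaagagaag
In Mcm5 and in the first capital run of Mcm6, a match on one strand overlaps a match on the other. Within 250 bases before the start, 611 of 32851 promoter windows (1.9%) held such a match, and 3.1% of the windows of tested genes did. Of the 33 tested genes of the replication and cell cycle list, 25 were in the table and 7 of them (28.0%) held a match: Mcm5, Mcm6, Hells, Uhrf1, Pola1, Cdk1 and Mcm7. Of the genes past the test described below, 4 of the 17 falls in the table held a match, and so did 2 of the 12 rises.

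Mt1 and Mt2 encode metallothioneins, small proteins that bind zinc and copper, and capitals mark the core of the metal response element, TGCACNC or TGCGCNC on either strand. The stretch of Mt1 lies at chr8:94178939-94179081 and that of Mt2 at chr8:94172468-94172617, both on the plus strand.
Mt1: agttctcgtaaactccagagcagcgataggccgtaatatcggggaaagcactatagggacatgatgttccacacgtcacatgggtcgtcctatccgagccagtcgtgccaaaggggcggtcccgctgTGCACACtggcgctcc
Mt2: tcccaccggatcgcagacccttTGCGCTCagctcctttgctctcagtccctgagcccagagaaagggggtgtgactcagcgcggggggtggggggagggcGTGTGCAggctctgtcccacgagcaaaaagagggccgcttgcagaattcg
This short core was common: 21.4% of all windows and 29.2% of the windows of tested genes held it, against 7 of the 11 genes of the metallothionein and zinc list in the table. Of the genes past the test, 5 of the 17 falls and 4 of the 12 rises in the table held it. Hmgcs1 is printed for the cholesterol pathway (chr13:119690201-119690350, plus strand, capitals on the sterol response element core CACCCCAC), and Hspa1b for the heat shock genes (chr17:34959239-34959388, minus strand, capitals on the heat shock element core GAANNTTC).
Hmgcs1: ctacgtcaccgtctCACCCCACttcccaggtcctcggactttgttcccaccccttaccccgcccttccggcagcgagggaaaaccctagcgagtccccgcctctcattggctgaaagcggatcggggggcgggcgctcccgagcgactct
Hspa1b: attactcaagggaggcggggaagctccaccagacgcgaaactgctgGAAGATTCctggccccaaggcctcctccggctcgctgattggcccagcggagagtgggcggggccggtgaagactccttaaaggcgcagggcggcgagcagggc
The letters CACCCCAC occurred in 2.6% of all windows, 2.8% of those of tested genes and 2 of 18 cholesterol genes in the table, Hmgcs1 and Acat2. The heat shock core occurred in 6.7% of all windows, 5.0% of those of tested genes and 5 of 14 heat shock genes. In each list a gene counted if any of its windows matched, so shares of genes and of windows are unlike measures. These matches describe the letters of the windows only, and the binding of any factor was not measured.

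Each library came as log2 expression values without read counts, so sequencing depth is unknown and precision is judged from the spread between libraries. Of 45792 genes listed, 22381 had values and 12637 reached a value of log2 of 10 in at least 3 of the 12 libraries and were tested. The median standard error of a difference between the 2 groups was 0.1. The tissue label fitted the values: all 16 hepatocyte genes were tested, with Apoa2, an apolipoprotein of hepatocytes, between 15.84 and 16.79 in the 6 libraries, while 1 of 12 pancreatic acinar genes, Cela1, passed the filter. HFHS replicates 1 and 3 stood apart from the other 10 libraries on the first principal component (37.54% of the variance, scores -32.85 and -28.45 against 0.4 to 14.38), and HFHS replicate 2, at 3.09, lay among the treated libraries. Measured against the mean of the curcumin group, the root mean square distance was 0.383 and 0.355 for HFHS replicates 1 and 3 and 0.172 for replicate 2. The adipocyte gene Cfd stood at 9.18 in HFHS replicate 3 and at 3.35 and 3.62 in replicates 1 and 2.

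Curcumin liposomes went with moderate changes in a small number of genes. By limma with Benjamini-Hochberg adjustment, 19 genes rose and 19 fell past the threshold of 0.05, which is 0.15% of genes tested in each direction and 0.301% in all, and adjusted p ranged from 0.0238 to 0.0482. At an unadjusted p under 0.05 stood 3123 genes, or 24.7%, and the counts of list members at that p given further on are to be read against this share. Genes that fell included the replication genes Mcm5, Mcm6, Hells and Atad2, the calponin and vinculin genes Cnn2 and Vcl, and the stress genes Hspa1b and Creb3l2. Genes that rose included the kinase gene Aatk, the ubiquitin ligase gene Fbxo31, the microRNA host transcript Mir22hg, the sphingosine kinase gene Sphk2 and the hemojuvelin gene Hfe2. Aatk, Fbxo31 and Gm10032 rose at least 2-fold, and the median size of the 38 changes was 0.59 on the log2 scale. For all 38, the 3 curcumin libraries lay to 1 side of the 3 HFHS libraries, as was so in 11.9% of all genes tested with curcumin higher and in 11.6% with curcumin lower. Because the same replicate numbers in HFHS and curcumin deviated together, the model of all 4 groups was also fitted with the replicate number as a block, although the numbers did not pair in every pair of groups. It called 110 rises (0.87%) and 132 falls (1.04%), 242 genes in all (1.92%), including all 38, while a block with HFHS and curcumin alone in the fit called 8, of which 1 was among the 38. The adjusted p of the first block is given further on mostly for genes where it was under 0.05. Those values therefore do not show how often the block changed a call. The count depended on which libraries were in the fit: it was 3207 without HFHS replicate 2, and 0 without HFHS replicate 1, HFHS replicate 3, curcumin replicate 2 or curcumin replicate 3, where limma gave 1793, 1887, 1814 and 2728 genes at an unadjusted p under 0.05. It was 2 without curcumin replicate 1, and 0 with HFHS replicate 2 as the only HFHS library (743 genes at an unadjusted p under 0.05). HFHS replicate 2 was the HFHS library nearest to the curcumin mean in 30 of the 38 genes (78.9%) and in 57.3% of all genes tested.

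**Figure D1:**
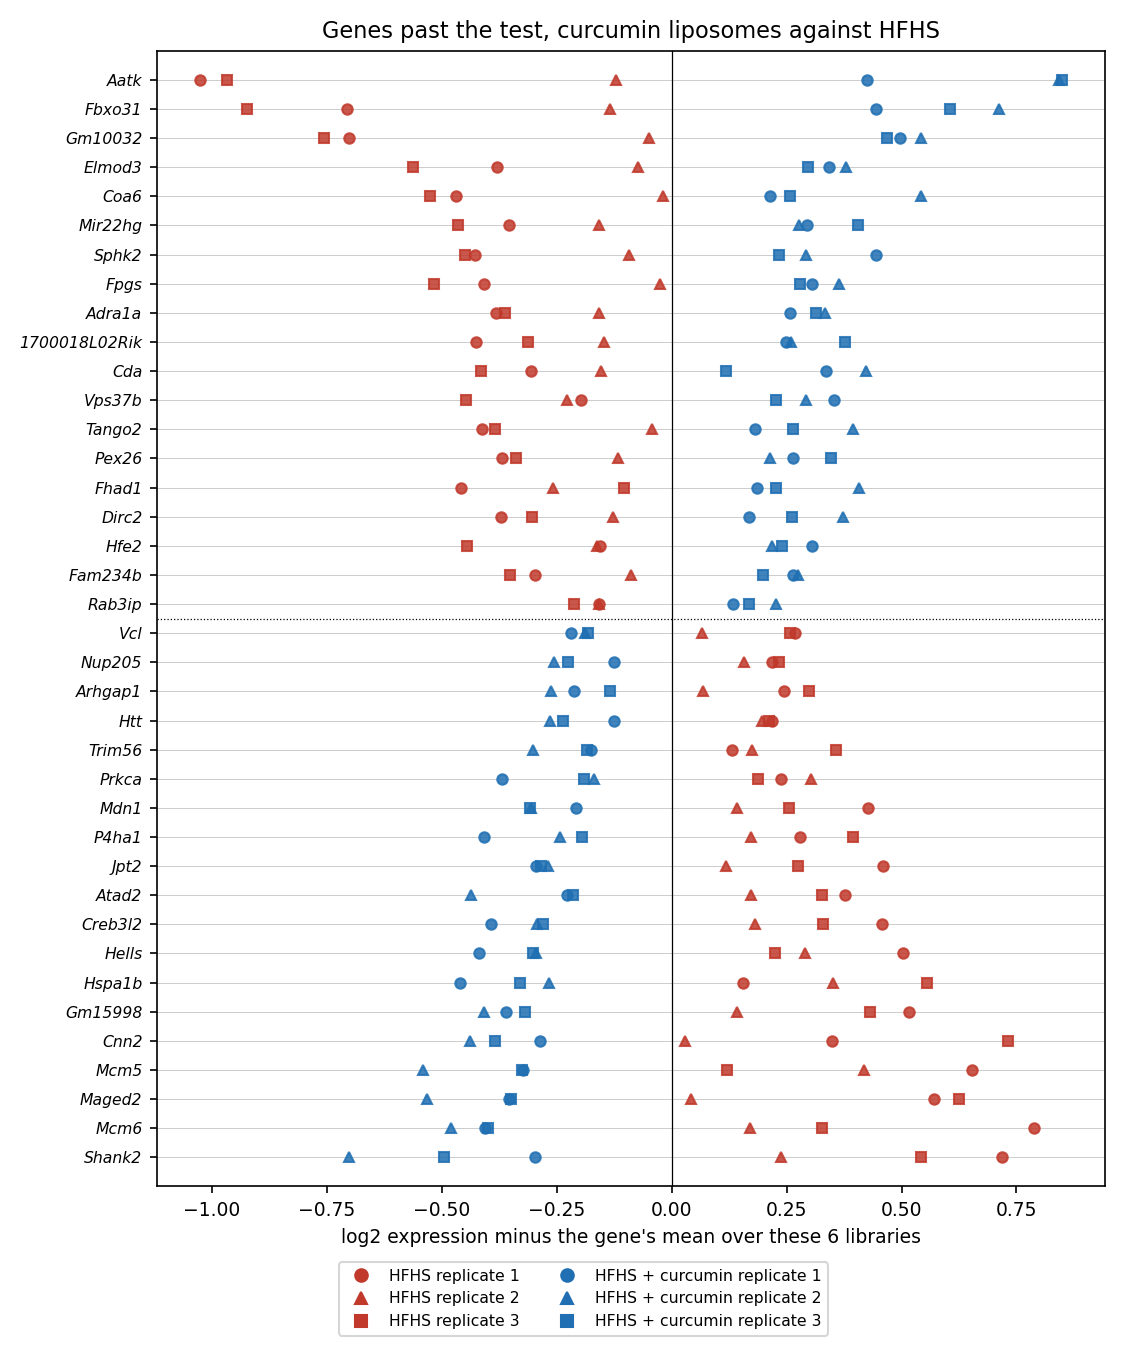
The log2 expression of the 38 genes past the test in the 3 HFHS (red) and 3 curcumin (blue) libraries, each minus the gene's mean over these 6 libraries; circles, triangles and squares are replicates 1, 2 and 3. The groups do not overlap for any gene, and HFHS replicate 2 (red triangle) lies nearest to the curcumin libraries in 30 of the 38.

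Replication genes are described first among the falls, with values given for replicates 1, 2 and 3 in that order. Mcm6 and Mcm5 encode subunits of the helicase that is loaded on DNA before replication. Mcm6 (GRCm38 chromosome 1, 128331590 to 128359664, minus strand) stood at 8.02, 7.40 and 7.56 in HFHS and at 6.83, 6.75 and 6.83 with curcumin, and fell by 0.86 ± 0.14 on the log2 scale (SE; limma, adjusted p = 0.0384), or 1.81-fold. Mcm5 (chromosome 8, 75109569 to 75128439, plus strand) stood at 6.99, 6.76 and 6.46 in HFHS and at 6.02, 5.80 and 6.02 with curcumin, a fall of 1.73-fold with the same adjusted p. For both genes every curcumin library was below every HFHS library, which fixes the direction against any single HFHS library. Against HFHS replicate 2 alone the changes were -0.60 and -0.81. Hells, a chromatin remodeller that maintains DNA methylation, stood at 5.04, 4.83 and 4.77 in HFHS and at 4.12, 4.25 and 4.24 with curcumin (change -0.68 ± 0.11). Atad2, a bromodomain ATPase of replicating chromatin, stood at 7.03, 6.83 and 6.98 in HFHS and at 6.43, 6.22 and 6.44 with curcumin (change -0.58 ± 0.10). All 3 HFHS livers were high in these 4 genes, unlike the matrix genes described further on, where replicate 2 was low.

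Of the 33 tested genes of the DNA replication and cell cycle list, 3 fell (Mcm6, Mcm5 and Hells) and 0 rose, 29 had changes below 0, and the median change was -0.41, against 50.8% below 0 and a median of -0.0034 over all genes tested. With the replicate block 9 of the 33 passed, all lower, adding the ligase gene Lig1 (change -0.57, adjusted p = 0.0328), the ribonucleotide reductase gene Rrm1, Uhrf1, the helicase genes Mcm3 and Mcm4, and the cyclin gene Ccnd1. Ccnd1, which drives entry into the cycle, stood at 12.11, 11.20 and 11.24 in HFHS and at 10.38, 10.40 and 10.36 with curcumin, a change of -1.14 ± 0.24 (adjusted p = 0.0541, or 0.0474 with the block). The proliferation marker Mki67 overlapped between the groups, at 7.45, 6.03 and 7.03 against 6.08, 5.59 and 5.65. Members that differed from the rest of the list were Pcna, the replication clamp (change -0.09 ± 0.07, adjusted p = 0.431), and the thymidine kinase gene Tk1, which was higher with curcumin (0.58 ± 0.21, adjusted p = 0.131). Against HFHS replicate 2 alone the median of the list was -0.25, with 27 of 33 changes below 0.

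Other genes that fell were spread over signalling, cytoskeleton, protein folding and ribosome assembly. Shank2 (chromosome 7, 144001928 to 144424494, plus strand), which encodes a scaffold protein best known from synapses, had the lowest adjusted p of the comparison. It stood at 8.61, 8.13 and 8.43 in HFHS and at 7.59, 7.19 and 7.40 with curcumin, and fell by 0.998 ± 0.118 on the log2 scale (limma adjusted p = 0.0238). Its lowest HFHS library was again replicate 2, which lay above every curcumin library. Maged2, a gene of the MAGE family on the X chromosome, stood at 7.34, 6.81 and 7.40 in HFHS and at 6.42, 6.24 and 6.42 with curcumin. Cnn2, calponin 2, an actin-binding protein, stood at 7.24, 6.92 and 7.62 against 6.61, 6.45 and 6.51. Hspa1b, an inducible heat shock chaperone of the HSP70 family, stood at 6.66, 6.85 and 7.06 against 6.04, 6.24 and 6.17, and here HFHS replicate 1, not replicate 2, was the lowest HFHS library. Reads of Hspa1b can be shared with its near-identical copy Hspa1a, which makes this value uncertain. Creb3l2, a transcription factor anchored in the endoplasmic reticulum, stood at 9.31, 9.04 and 9.19 in HFHS and at 8.46, 8.56 and 8.58 with curcumin. Gm15998, an unnamed transcript, stood at 5.37, 5.0 and 5.29 against 4.49, 4.45 and 4.54; it overlaps Efna3 on the other strand, and the reads of the pair cannot be told apart where the counting did not use strand, which is not stated. The other falls were smaller, from -0.57 to -0.39: Jpt2, the collagen prolyl hydroxylase gene P4ha1, the ribosome assembly ATPase gene Mdn1, the protein kinase C gene Prkca, the ubiquitin ligase gene Trim56, the huntingtin gene Htt, the GTPase regulator gene Arhgap1, the nuclear pore gene Nup205 and the vinculin gene Vcl. Prkca overlaps Apoh, an abundant liver gene, and Vcl overlaps Ap3m1, each on the other strand, and Htt overlaps Msantd1 on its own strand. The HFHS libraries of Htt were close together, with 8.88, 8.86 and 8.87 against 8.53, 8.39 and 8.42 with curcumin.

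Among the rises, Aatk, a kinase gene of the lemur tyrosine kinase family (chromosome 11, 120007313 to 120047167, minus strand), had the largest change. It stood at 6.14, 7.05 and 6.20 in HFHS and at 7.59, 8.01 and 8.02 with curcumin, a 2.66-fold rise (1.41 ± 0.23, limma adjusted p = 0.0384). Against HFHS replicate 2 alone its change was 0.83. Fbxo31, the substrate-binding subunit of a ubiquitin ligase (chromosome 8, 121549440 to 121578806, minus strand), stood at 9.22, 9.79 and 9.0 in HFHS and at 10.37, 10.63 and 10.53 with curcumin, a 2.26-fold rise (1.18 ± 0.19). Again replicate 2 was the highest of the HFHS libraries and lay below all 3 curcumin libraries. Gm10032, an unnamed transcript (chromosome 14, 66784480 to 66793758), stood at 3.98, 4.63 and 3.92 against 5.18, 5.22 and 5.15 and rose 2.01-fold. It lies next to Adra1a, the alpha-1A adrenergic receptor gene (chromosome 14, 66635251 to 66771168), which stood at 6.76, 6.99 and 6.78 in HFHS and at 7.40, 7.48 and 7.46 with curcumin and also rose (0.60 ± 0.08, adjusted p = 0.0378). Elmod3, which encodes a regulator of small GTPases, stood at 8.11, 8.42 and 7.93 against 8.83, 8.87 and 8.79. Fbxo31, Coa6 and Fpgs overlap Gm20388, Tarbp1 and Eng on the other strand, so part of their reads may be shared.

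The next rises are given with the list that each gene belongs to. Coa6, an assembly factor of cytochrome oxidase, stood at 7.29, 7.74 and 7.23 in HFHS and at 7.97, 8.30 and 8.02 with curcumin (0.68 ± 0.12, limma adjusted p = 0.0479). Of the 20 tested genes of cytochrome oxidase assembly Coa6 alone passed, 15 had changes above 0 and the median was 0.11, which turned to -0.03 with 11 of 20 below 0 against HFHS replicate 2 alone. At an unadjusted p under 0.05 in limma stood 3 of the 20, a share below that of all genes. Sphk2, which makes the signalling lipid sphingosine 1-phosphate, stood at 8.93, 9.26 and 8.90 in HFHS and at 9.80, 9.64 and 9.59 with curcumin (0.65 ± 0.11). It overlaps the clock gene Dbp and the ribosomal protein gene Rpl18 on the other strand, which had changes of -0.22 ± 0.12 and 0.12 ± 0.07. Sphk2 was the member of the sphingolipid list that passed, out of 21, of which 15 had changes below 0. In limma 4 of the 21 were at an unadjusted p under 0.05, again a share below that of all genes. Fpgs, the enzyme that traps folate in cells, stood at 10.24, 10.62 and 10.13 against 10.96, 11.02 and 10.93 (0.63 ± 0.12, adjusted p = 0.0482), and was the member that passed among 25 tested genes of folate and one-carbon metabolism. The median of that list was 0.14, or 0.31 without HFHS replicate 2, and turned to -0.06 with 19 of 25 below 0 against HFHS replicate 2 alone. The remaining rises ran from 0.35 to 0.59. They were 1700018L02Rik (4.22, 4.5 and 4.33 against 4.90, 4.91 and 5.02; it overlaps Ak3 on the other strand), the cytidine deaminase gene Cda, the sorting gene Vps37b, Tango2, the peroxisome import gene Pex26, Fhad1, the lysosomal transporter gene Dirc2, the hemojuvelin gene Hfe2, Fam234b and Rab3ip. Hfe2, a co-receptor through which hepatocytes control hepcidin, stood at 9.49, 9.48 and 9.20 in HFHS and at 9.95, 9.86 and 9.88 with curcumin. Vps37b overlaps Hip1r, and Fam234b overlaps Hebp1 and Gsg1, each on the other strand.

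Mir22hg is the host transcript of miR-22 (GRCm38 chromosome 11, 75461539 to 75466676, plus strand). It stood at 7.94, 8.14 and 7.83 in HFHS and at 8.59, 8.57 and 8.70 with curcumin, a 1.57-fold rise (0.65 ± 0.10, limma adjusted p = 0.0384). The mature arms that the locus encodes are printed with their seeds, bases 2 to 8, in capitals. They lie at chr11:75463734-75463755 (5p) and chr11:75463772-75463793 (3p) in RefSeq.
mmu-miR-22-5p: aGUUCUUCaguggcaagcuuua
mmu-miR-22-3p: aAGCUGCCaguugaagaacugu
The arms do not share a seed, and the mature microRNAs were not measured in these libraries. The gene Tlcd2 overlaps the host transcript on the same strand and had a change of 0.44 ± 0.26 (adjusted p = 0.309).

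The same genes were read in the other groups of the series. Both comparisons below share the curcumin libraries with the one above, so they are given as values side by side. Curcumin and calcitriol livers differed past the threshold in 0 of 12637 genes in limma (0%; 1873 genes at an unadjusted p under 0.05), and 443 genes (3.51%) differed between curcumin and CNT. Mcm6 and Mcm5 stood in the curcumin group near their levels in CNT, with differences from CNT of 0.20 ± 0.14 and 0.25 ± 0.13 (adjusted p = 0.491 and 0.349). With calcitriol, Mcm6 stood at 6.69, 6.49 and 6.55 and Mcm5 at 5.88, 5.53 and 5.65, also below all 3 HFHS libraries. Shank2 lay below both other groups, at 7.85, 7.78 and 7.83 with calcitriol and 7.80, 7.73 and 7.72 in CNT, though neither difference passed (adjusted p = 0.21 and 0.126). Aatk stood at 6.61, 6.53 and 6.15 in CNT, within the range of HFHS, and the curcumin group was above CNT by 1.45 ± 0.23 (adjusted p = 0.00797). Calcitriol livers had Aatk at 7.12, 7.52 and 7.21, between HFHS and curcumin. Sphk2, Adra1a and Hfe2 were likewise higher with curcumin than in CNT (0.57 ± 0.11, 0.50 ± 0.08 and 0.69 ± 0.09, adjusted p = 0.0157, 0.00697 and 0.00214). Mir22hg stood at 8.72 to 8.92 in CNT and at 8.85 to 9.17 with calcitriol, and the difference between curcumin and CNT was -0.18 ± 0.10 (adjusted p = 0.377). Gm15998 was lower with curcumin than in CNT by 1.06 ± 0.12 (adjusted p = 0.000908).

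**Figure D2:**
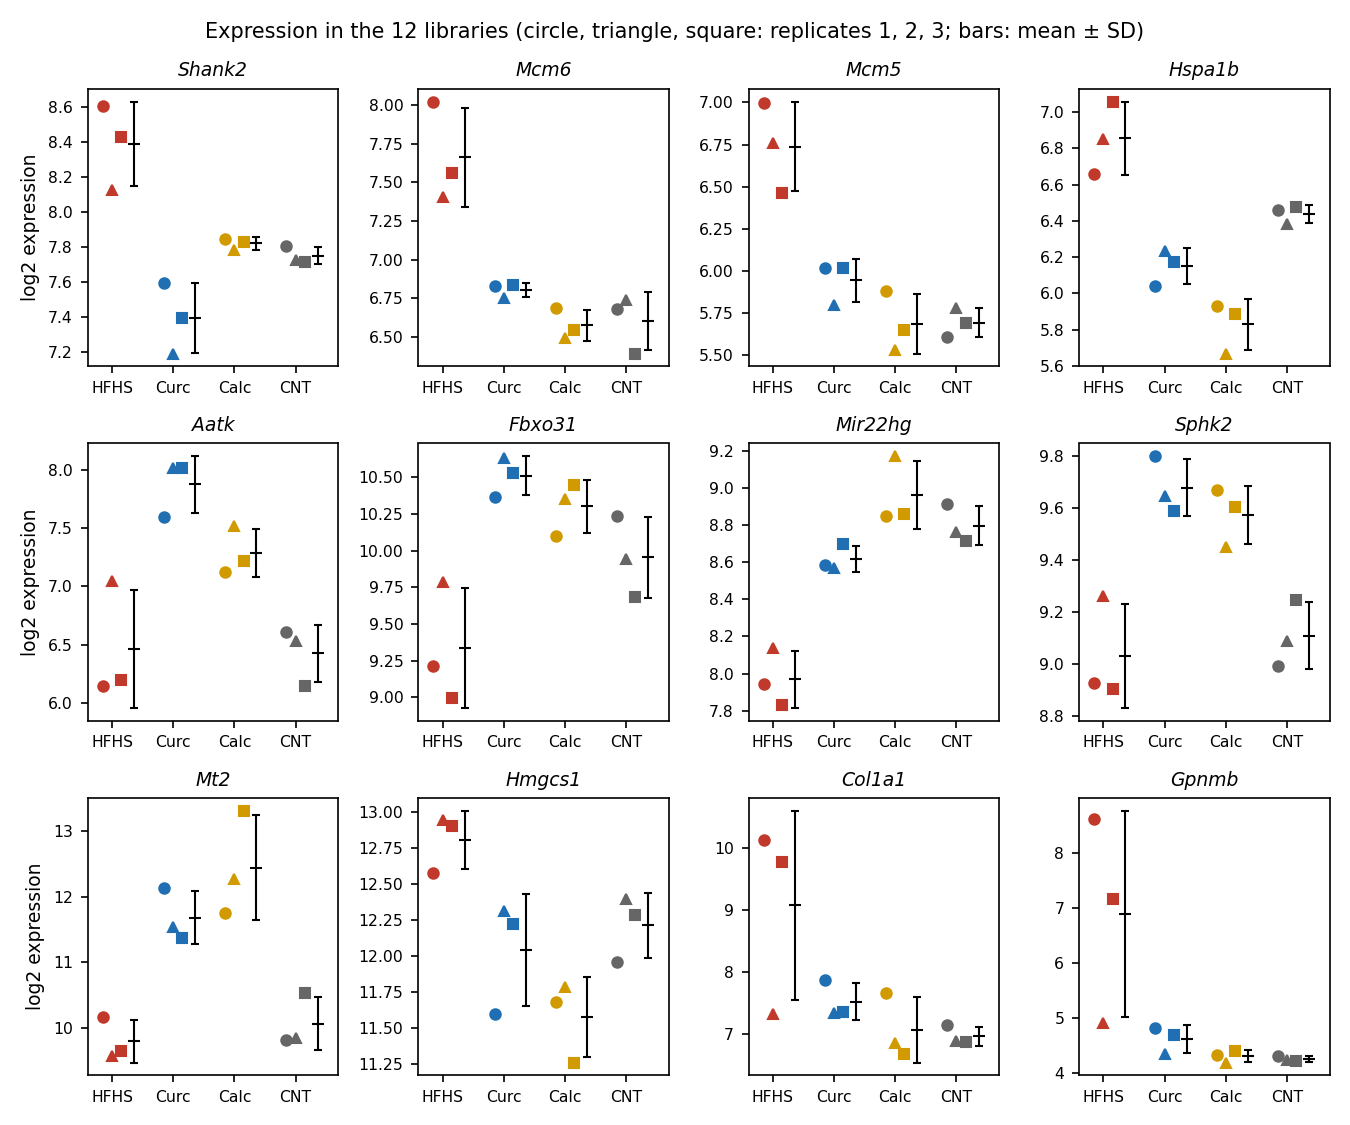
Log2 expression of 12 genes in each of the 12 libraries by group (Curc, HFHS with curcumin liposomes; Calc, HFHS with calcitriol liposomes); symbols are replicates 1, 2 and 3, and bars are the mean ± SD of 3 libraries. Shank2, Mcm6, Mcm5 and Hspa1b are lower and Aatk, Fbxo31, Mir22hg and Sphk2 higher with curcumin than in all 3 HFHS libraries, while Col1a1 and Gpnmb separate HFHS replicates 1 and 3 from the rest.

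Cholesterol genes mostly had changes below 0, and for Hmgcs1 and Lss it was HFHS replicate 1, not replicate 2, that lay closest to the curcumin libraries. Of 26 tested genes of cholesterol synthesis and uptake, 0 passed the main test in limma (15 at an unadjusted p under 0.05). Changes below 0 were found in 23, and the median change was -0.38. In 12 the groups did not overlap, against 11.6% of all genes tested with curcumin lower. With the replicate block 8 fell, among them Lss, Sc5d, Hmgcs1, Cyp51, Mvk and Sqle. Hmgcs1, a synthase early in the pathway, stood at 12.57, 12.94 and 12.90 in HFHS and at 11.59, 12.31 and 12.22 with curcumin, a change of -0.76 ± 0.20 (adjusted p = 0.0766, or 0.0474 with the block). Lss, lanosterol synthase, stood at 10.39, 10.73 and 10.65 against 9.79, 10.13 and 10.13 (-0.57 ± 0.12, adjusted p = 0.051, or 0.0342 with the block). In both genes and both groups replicate 1 was the lowest, and the groups did not overlap. Sc5d, a desaturase late in the pathway, stood at 12.99, 13.32 and 12.94 against 12.57, 12.67 and 12.60 (adjusted p = 0.0741). Srebf2, which encodes the controlling factor, overlapped between the groups (-0.05 ± 0.10, adjusted p = 0.781). Against HFHS replicate 2 alone the median was -0.64 with 25 of 26 below 0, and without that library it was -0.25. Lss was also lower than in CNT (-0.51 ± 0.12, adjusted p = 0.0339), while Hmgcs1 was not past the test there (-0.17 ± 0.20). With calcitriol, Hmgcs1 stood at 11.68, 11.79 and 11.26 and Lss at 9.82, 9.90 and 9.61. Both genes were thus below all 3 HFHS libraries there too, and their low values were not particular to curcumin. The fatty acid synthase gene Fasn stood at 12.48, 12.96 and 12.77 in HFHS and at 11.81, 12.18 and 12.21 with curcumin (-0.67 ± 0.17, adjusted p = 0.0724, or 0.066 with the block). Scd1, a desaturase, had a change of -0.49 ± 0.47 (adjusted p = 0.538). Of the 21 tested genes of fatty acid synthesis that hold both, 0 passed in limma (5 at an unadjusted p under 0.05), 13 had changes below 0 and the median was -0.12, or -0.44 against HFHS replicate 2 alone and 0.07 without it.

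Matrix, macrophage and antigen presentation genes mostly had changes below 0, with high values in HFHS replicates 1 and 3 and not in replicate 2. Of 37 tested genes of fibrosis and extracellular matrix, 0 passed in limma (27 at an unadjusted p under 0.05), 35 had changes below 0 and the median was -0.76. The mean deviation of the list (its score) was 1.08 and 0.94 in HFHS replicates 1 and 3, -0.15 in HFHS replicate 2 and -0.19 to -0.06 with curcumin. Against HFHS replicate 2 alone the median turned to 0.06. The fibrillar collagen gene Col1a1 had values of 10.13, 7.33 and 9.78 in HFHS and at 7.87, 7.34 and 7.36 with curcumin (-1.56 ± 0.62, adjusted p = 0.164), so that the groups overlapped. Col15a1, a basement membrane collagen, was an exception, with 8.13, 7.86 and 7.98 against 7.39, 7.07 and 7.22 (-0.76 ± 0.18, adjusted p = 0.0724, or 0.0465 with the block) and -0.63 against HFHS replicate 2 alone. Thbs1, thrombospondin 1, stood at 6.69, 5.18 and 6.49 in HFHS against 5.11, 4.94 and 5.04.

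The macrophage list divided the HFHS libraries in the same way, with scores of 1.25 and 0.73 in replicates 1 and 3 and -0.15 in replicate 2, against -0.28 to -0.08 with curcumin. All 15 tested genes of lipid-associated and infiltrating macrophages had changes below 0 (median -0.70), with 0 past the main test in limma and 11 at an unadjusted p under 0.05. Gpnmb, abundant in macrophages filled with lipid, stood at 8.62, 4.89 and 7.15 in HFHS and at 4.81, 4.34 and 4.68 with curcumin, and Trem2, a lipid-sensing receptor, at 6.22, 5.0 and 5.82 against 4.86, 4.87 and 4.84. The list's median was -0.02 against HFHS replicate 2 alone. Cd68, a general macrophage marker, had a change of -0.36 ± 0.13 (adjusted p = 0.133, or 0.0475 with the block). All 9 MHC class II genes had changes below 0 (median -0.51, or 0.00 against HFHS replicate 2 alone), with H2-DMa at 7.06, 6.54 and 7.06 against 6.53, 6.28 and 6.35. Cd4 stood at 4.16, 3.87 and 4.06 in HFHS and at 3.67, 3.65 and 3.66 with curcumin (-0.37 ± 0.08, adjusted p = 0.0539, or 0.0474 with the block). Of the other lists of blood and duct cells, 9 of 11 T and NK cell genes, 9 of 10 B and plasma cell genes, 6 of 6 neutrophil genes and 10 of 11 cholangiocyte genes had changes below 0, with 0 past the main test and 4, 0, 1 and 1 at an unadjusted p under 0.05, of which the last 3 are shares below the 24.7% of all genes. Against HFHS replicate 2 alone the medians were -0.06 and -0.01 for the T and NK cell and neutrophil lists, and turned to 0.19 (0 of 10 below 0) for B and plasma cells and 0.08 (3 of 11 below 0) for cholangiocytes. In whole liver, fewer cells of a type and less RNA per cell cannot be told apart. Genes of the actin and calponin cytoskeleton had the same division: Cnn2 and Vcl fell, 24 of 25 had changes below 0, and the median of -0.48 became -0.04 against HFHS replicate 2 alone.

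Inflammatory and interferon genes had smaller changes. Of 22 tested NF-kB subunits, inhibitors and targets, 0 passed the main test in limma (11 at an unadjusted p under 0.05) and 18 had changes below 0 (median -0.30, or -0.02 against HFHS replicate 2 alone). Ccl5, a chemokine that attracts T cells, stood at 6.22, 5.53 and 6.5 in HFHS and at 5.23, 5.18 and 5.29 with curcumin (-0.85 ± 0.20, adjusted p = 0.0688, or 0.0457 with the block). Il1b (-0.31 ± 0.18, adjusted p = 0.298), Ccl2 (-0.39 ± 0.16, adjusted p = 0.171) and the inhibitor gene Nfkbia (-0.07 ± 0.12, adjusted p = 0.752) overlapped between the groups, and Tnf was not among the genes tested. Of 32 interferon response genes, 30 had changes below 0 (median -0.27), with 0 past the main test in limma and 13 at an unadjusted p under 0.05; the median was -0.14 against HFHS replicate 2 alone. The RNA sensor genes Ddx58 and Ifih1 had groups that did not overlap, Ifih1 with 9.37, 9.38 and 9.32 against 9.08, 9.01 and 9.13 (-0.28 ± 0.08, adjusted p = 0.0812, or 0.081 with the block). The NRF2 targets Hmox1, heme oxygenase (9.78, 9.29 and 9.13 against 9.36, 9.09 and 9.04), and Nqo1, a quinone reductase (7.80, 7.72 and 7.90 against 7.53, 7.64 and 7.41), had changes of -0.24 ± 0.18 and -0.28 ± 0.13 (adjusted p = 0.424 and 0.214). Of the 27 tested NRF2 targets 0 passed in limma (8 at an unadjusted p under 0.05, near the share of all genes) and 20 had changes below 0, with a median of -0.22, or -0.08 against HFHS replicate 2 alone.

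**Figure D3:**
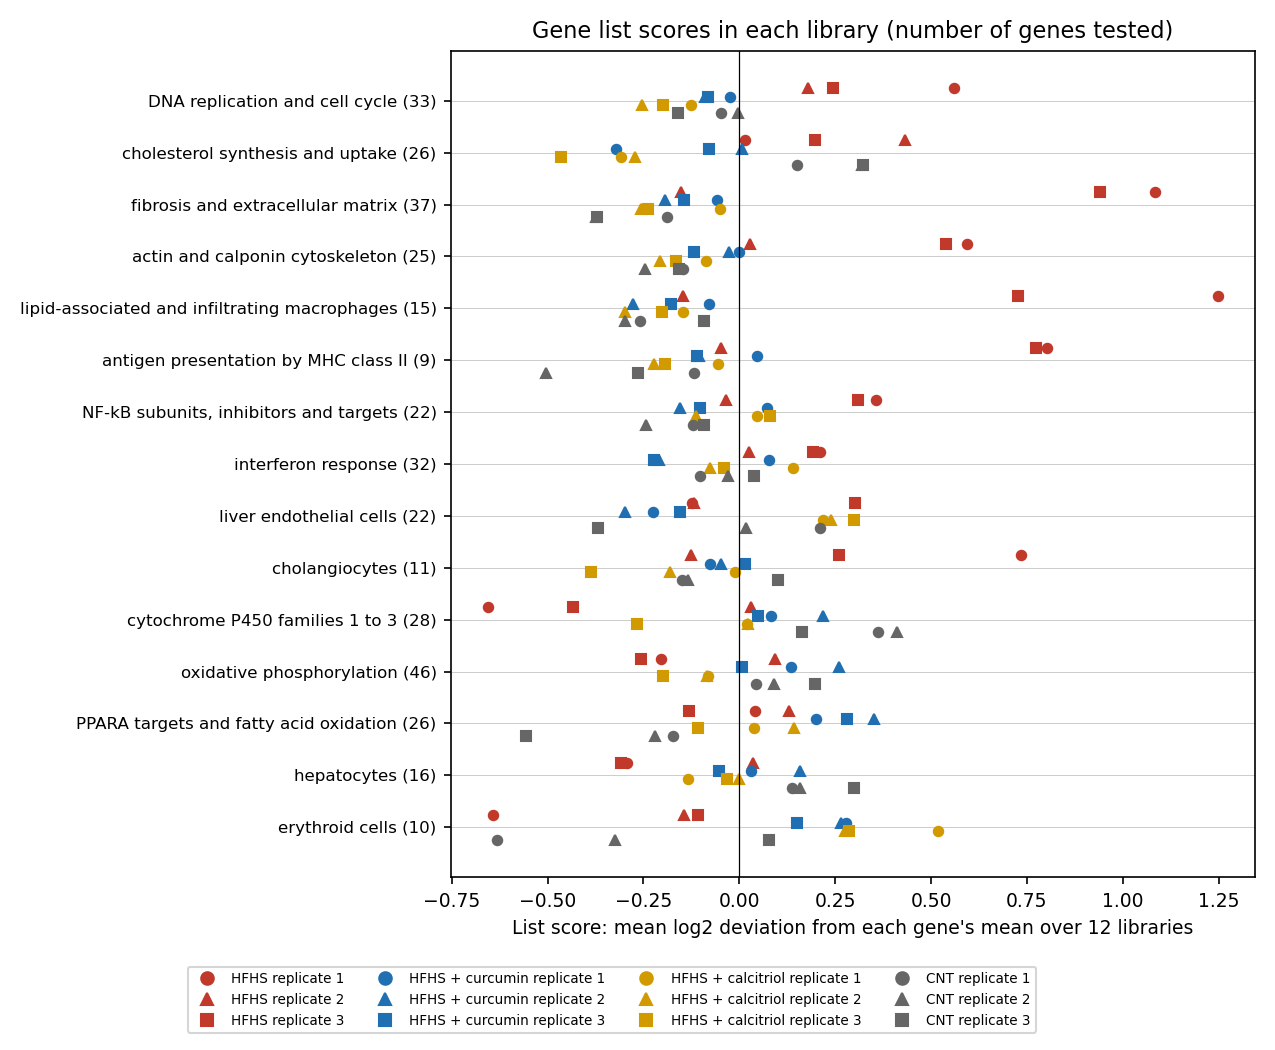
The score of 15 gene lists, the mean log2 deviation of the list's genes from their means over the 12 libraries, in each library; colours are groups and symbols replicates 1, 2 and 3. Fibrosis, macrophage and MHC class II scores are high in HFHS replicates 1 and 3 alone, while replication scores are at 0.18 or above in all 3 HFHS libraries and below 0 in the curcumin libraries.

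Among chaperone genes Hspa1b fell. The co-chaperone genes Dnajb1 (8.83, 9.09 and 8.90 in HFHS, 8.41, 8.72 and 8.55 with curcumin) and Bag3 (9.02, 9.21 and 9.13 against 8.75, 8.71 and 8.75) did not overlap between the groups, with limma adjusted p of 0.071 and 0.0868. With the block it was 0.0602 and 0.0652. The list of 19 heat shock chaperones had 1 fall, 12 changes below 0 and a median of -0.10. In the list of endoplasmic reticulum chaperones and the unfolded protein response Creb3l2 fell and 20 of 24 had changes below 0. The median of that list was -0.11. In limma 4 of the 24 were at an unadjusted p under 0.05, a share below that of all genes. The related liver factor gene Creb3l3 had a change of 0.36 ± 0.10 (adjusted p = 0.0831).

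The metallothionein genes missed the threshold with differences larger than those of the 38 genes past it. Mt2 stood at 10.17, 9.57 and 9.64 in HFHS and at 12.14, 11.54 and 11.37 with curcumin, a difference of 1.89 ± 0.37 or 3.7-fold (limma adjusted p = 0.051, or 0.05001 with the block). Mt1 stood at 10.94, 10.66 and 10.65 against 12.68, 12.25 and 12.01 (1.56 ± 0.35, adjusted p = 0.0665, or 0.0597 with the block). All 3 curcumin livers were above all 3 HFHS livers in both genes, HFHS replicate 2 included. Mt1 overlapped between curcumin and CNT, where it stood at 11.18, 11.31 and 12.33. Calcitriol livers had Mt2 at 11.75, 12.27 and 13.31 and CNT livers at 9.82, 9.85 and 10.53, and for Mt2 the curcumin group was above CNT by 1.62 ± 0.37 (adjusted p = 0.0389).

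The lists of oxidative phosphorylation, P450 enzymes and fatty acid oxidation mostly had changes above 0, unlike those of cholesterol and fatty acid synthesis. All 46 tested genes of oxidative phosphorylation had changes above 0, against 49.2% of all genes tested, with a median of 0.25. Of these, 0 passed the main test in limma (28 at an unadjusted p under 0.05). In 2 the groups did not overlap, a smaller share than the 11.9% of all genes tested with curcumin higher. Ndufs3, a subunit of complex I, stood at 9.0, 9.31 and 9.01 in HFHS and at 9.36, 9.64 and 9.44 with curcumin (0.38 ± 0.09, adjusted p = 0.0724, or 0.0537 with the block). Against HFHS replicate 2 alone the median of the list was 0.04 with 15 of 46 below 0. Of 28 tested P450 genes and their reductase, 25 had changes above 0 (median 0.50, or 0.08 against HFHS replicate 2 alone), 0 passed the main test in limma (14 at an unadjusted p under 0.05) and 3 passed with the block: Por, Cyp2c54 and Cyp2d9. Por, which feeds electrons to the P450 enzymes, stood at 13.10, 13.72 and 13.26 against 14.14, 14.28 and 14.11 (0.82 ± 0.17, adjusted p = 0.051, or 0.0316 with the block). Cyp2c54 stood at 9.14, 10.22 and 9.70 against 10.70, 11.45 and 11.19 (1.43 ± 0.33, adjusted p = 0.071, or 0.0048 with the block); it has close relatives that could share its reads. Of 26 PPARA targets and fatty acid oxidation genes, 0 passed in limma (13 at an unadjusted p under 0.05) and 22 had changes above 0 (median 0.27, or 0.11 against HFHS replicate 2 alone). Acot1, an acyl-CoA thioesterase, stood at 9.25, 9.21 and 8.46 against 9.85, 10.30 and 10.14 (1.12 ± 0.35, adjusted p = 0.107, or 0.0625 with the block). Cyp7a1, which opens bile acid synthesis, had a change of 0.35 ± 0.26 (adjusted p = 0.425).

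Markers of hepatocytes, blood and endothelium are given as measured. Of 16 general hepatocyte genes 14 had changes above 0 (median 0.26), and their score was -0.29 and -0.31 in HFHS replicates 1 and 3, 0.04 in replicate 2 and -0.05 to 0.16 with curcumin. Of 16 periportal genes 14 had changes above 0, among them the urea cycle gene Asl (12.23, 12.83 and 11.81 against 13.16, 13.15 and 12.99), and of 16 pericentral genes 13 did, among them Cyp2e1. Against HFHS replicate 2 alone the periportal median of 0.31 turned to -0.04, with 10 of 16 below 0, and the medians of the general and pericentral lists were 0.07 and 0.02. All 10 erythroid genes had changes above 0 (median 0.50, or 0.30 against HFHS replicate 2 alone), with the globin genes Hba-a1 at 9.14, 9.80 and 10.13 against 10.62, 10.80 and 10.62 and Hbb-bs at 11.30, 11.93 and 12.28 against 12.72, 12.72 and 12.61. The globin genes have near-identical copies, so their separate values are uncertain. Of 22 endothelial genes 20 had changes below 0 (median -0.24, or -0.12 against HFHS replicate 2 alone), with Emcn, a surface glycoprotein, at 5.72, 5.56 and 6.21 against 5.25, 5.36 and 5.28. Of these marker genes 0 passed the main test in limma, with 7 hepatocyte, 5 periportal, 5 pericentral, 4 erythroid and 3 endothelial genes at an unadjusted p under 0.05, and their part in the other results was not tested.

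**Figure D4:**
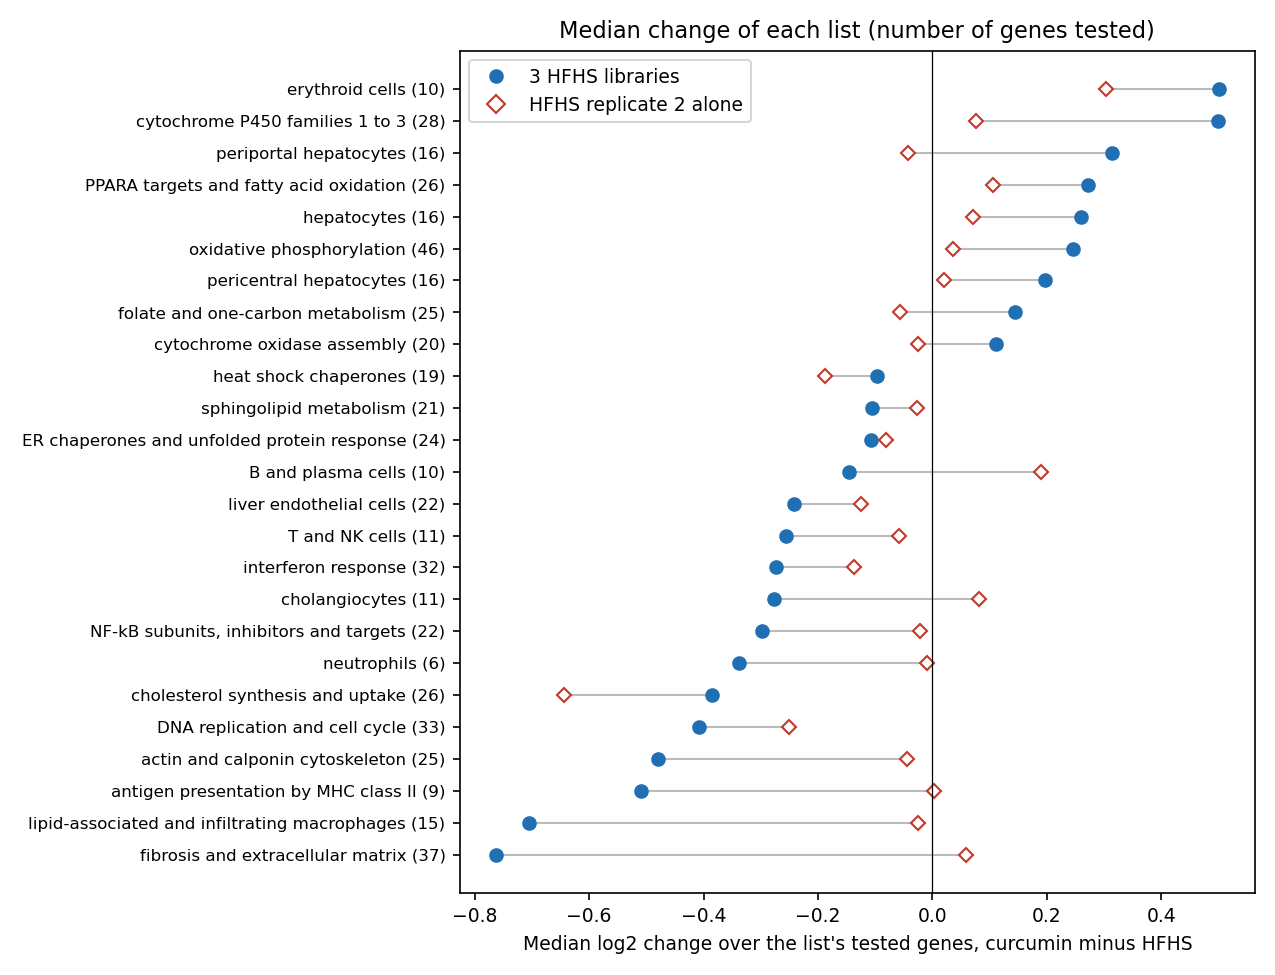
The median log2 change, curcumin minus HFHS, over the tested genes of 25 lists, with all 3 HFHS libraries (filled circles) and with HFHS replicate 2 as the only HFHS library (open diamonds). The medians of the fibrosis and MHC class II lists move from -0.76 and -0.51 to 0.06 and 0.00, while those of the cholesterol list (-0.38 and -0.64) and the replication list (-0.41 and -0.25) stay below 0.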

How the data were processed

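Per the labels' protocols, RNA was extracted from flash frozen livers with an RNeasy kit and made into libraries with a standard Illumina protocol. The deposited tables hold log2 expression values per Ensembl gene, with the transformation not given in the sources used here. The submitters' processing notes name STAR 2.4.0d, DESeq2 1.8.1 and GRCm38. In the deposited log2 values no gene was at 0 in some libraries only, and the pattern is that of a shrunken log2 scale, on which changes of weak genes come out too small. Symbols and coordinates came from GENCODE on GRCm38, and 32 of the 12637 tested genes had no symbol. No further scaling was applied.

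Group means of all 12 libraries were fitted with limma 3.58.1 in R 4.3.3 (empirical Bayes with trend, robust), with two-sided p-values adjusted by Benjamini-Hochberg across the 12637 genes and a threshold of 0.05. On simulated data of 12637 genes the fit recovered 94% of log2 changes of 1 and 58% of changes of 0.5. It made 12 false calls among the genes left unchanged. These figures hold for the simulated noise only. In the real data the count of genes past the threshold depended on which libraries were in the fit. The simulation therefore does not give the recovery or the false calls of the real comparison. Replicate numbers come from the titles, which do not say what a number marks. Deviations from the group means of same-numbered HFHS and curcumin libraries correlated across genes at 0.16, 0.32 and 0.16, and each library correlated best with its own number in the other group. The same check gave -0.08, -0.02 and -0.38 for curcumin and CNT. The first check was drawn from these same libraries. On its strength, a fit of all groups with the number as a block is given beside the results it changes. That fit gives all 4 groups the same replicate effect, which the correlations of curcumin and CNT do not bear out. Its p-values are left out for many genes that stayed above 0.05. Those given above that threshold are for Mt2, Mt1, Fasn and Ndufs3 (limma with the block, adjusted p = 0.05001, 0.0597, 0.066 and 0.0537) and for Dnajb1, Bag3, Ifih1 and Acot1.

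Members and the 43 gene lists (27 of pathways, 16 of cell types) were chosen with earlier results of these data known. By rule, every gene past the threshold was named, the 10 largest rises and 10 largest falls were given in every library, and up to 4 members with the smallest p were open to naming from lists with a passing gene or at least 80% of changes on 1 side of 0. Mt1, Mt2, Hmox1, Nqo1, Tnf, Il1b, Ccl2, Nfkbia, Col1a1, Cd68, Cyp7a1, Scd1, Fasn, Hspa1a, Hspa1b, Mcm5, Mcm6 and Shank2 were always to be given, of which Tnf and Hspa1a were not among the genes tested. Mki67, Pcna, Tk1, Srebf2 and the genes that passed only with the block were chosen after their values were seen, as were Hfe2, Htt, Cfd and the genes that overlap a called gene. Some genes are not reported here. Alternatives concerned the libraries and groups in the fit, the scaling, the filter, the variance model and library weights.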

Additional observations from a re-analysis of the deposited data

How the results depend on the processing

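All 38 genes that passed kept their direction under each of 15 alternatives in which they were tested, and each passed in 5 to 9 of them. Because their groups do not overlap, most of that direction is fixed. The count of 38 (19 higher, 19 lower) was 242 (110 and 132) with the replicate block, 162 (78 and 84) after quantile normalization, 131 (64 and 67) with a filter at log2 of 100, and 3420 (1593 and 1827) with library weights, which gave HFHS replicate 2 a weight of 0.24. It was 0 (0 and 0) in a fit of these 2 groups only and with HFHS replicate 2 as the sole HFHS library, whose spread is then taken from the other groups. Leaving out 1 library at a time gave 0 to 3207 (0 to 1456 higher, 0 to 1751 lower). A block in a fit of these 2 groups only, added after the values were seen, gave 8 (5 and 3), of which 1 was among the 38. Equal medians, no filter, and a variance model without trend and robust estimation gave 42, 28 and 31, with 36, 28 and 27 of the 38 among them. The replicate block lost none of the 38 calls. Of 112 other genes tracked over the alternatives, 97 passed in at least 1, but many of the 112 were chosen for a small p. The fits with library weights and without HFHS replicate 2 called 3420 and 3207 of the 12637 genes tested. The share of all genes that passed in at least 1 alternative was not counted. Depth is unknown, and the precision is set by 3 libraries per group and by the spread among the HFHS libraries. At a filter of log2 of 100, 2 lists had no gene left to give a median.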

Other observations

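Genes of 3 further lists, named after their values were seen, had groups that did not overlap, as was so in 23.57% of all genes tested. Curcumin was higher without overlap in 4 of 18 clock, 4 of 22 bile acid and 3 of 13 zinc genes, against 11.9% of all genes. It was lower without overlap in 1, 3 and 1 of them, against 11.6% of all genes. In the clock list the repressor gene Cry1 stood at 6.71, 7.52 and 7.21 in HFHS and at 8.16, 8.15 and 8.05 with curcumin (0.97 ± 0.19, limma adjusted p = 0.051, or 0.0475 with the replicate block). Nr1d1, another clock repressor, had the opposite sign, at 10.28, 10.15 and 10.41 against 9.22, 9.44 and 9.47 (-0.91 ± 0.18, adjusted p = 0.051). Over the 18 tested clock genes 12 had changes above 0 and 0 passed in limma (5 at an unadjusted p under 0.05), and the median of 0.16 turned to -0.04 against HFHS replicate 2 alone. The hour at which livers were taken is not given in the sources used here. In the bile acid list Nr0b2, the repressor SHP, stood at 7.99, 8.14 and 7.88 in HFHS and at 6.70, 7.38 and 7.22 with curcumin (-0.90 ± 0.18, adjusted p = 0.051, or 0.0474 with the block). The receptor FXR that induces it, encoded by Nr1h4, had a change of 0.40 ± 0.09 (adjusted p = 0.0539, or 0.0355 with the block). Calcitriol livers had Nr0b2 at 8.37, 7.98 and 7.70, like HFHS, and the curcumin group differed from them by -0.92 (adjusted p = 0.169). Over the 22 tested bile acid genes 15 had changes above 0 and 0 passed in limma (8 at an unadjusted p under 0.05). The median of 0.18 turned to -0.02 against HFHS replicate 2 alone.

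Of the zinc transport genes, 1 exporter and 1 importer passed with the replicate block, in opposite directions. Slc30a1, a zinc exporter of the cell membrane, stood at 9.39, 9.39 and 9.40 in HFHS and at 9.77, 9.67 and 9.66 with curcumin (0.31 ± 0.06, limma adjusted p = 0.051, or 0.0475 with the block). Slc39a10, a zinc importer, stood at 6.12, 6.10 and 6.05 against 5.60, 5.66 and 5.52 (-0.50 ± 0.10, adjusted p = 0.051, or 0.0474 with the block). Over the 13 tested genes of metallothioneins and zinc handling 8 had changes above 0 and the median was 0.11. Cd163, a scavenger receptor of resident Kupffer cells, stood at 6.70, 8.5 and 6.49 in HFHS and at 8.52, 8.60 and 8.62 with curcumin (1.35 ± 0.42, adjusted p = 0.107). Against HFHS replicate 2 alone its change was 0.08. The 15 Kupffer cell genes had a median change of -0.02.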
